A study of Caenorhabditis elegans with 2 samples.

Results

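The 873 regions described here are PHA-4 ChIP-seq peaks that lie in promoter windows of genes on both strands. Such genes are called divergent here, and in most cases they are neighbours read away from each other. A promoter window began 1000 bp before the 5' end of a transcript of a protein-coding gene and ended 200 bp after it. A peak was taken when its summit, the highest point of the region, lay in the windows of at least 1 gene on each strand. These 873 peaks are 24.4% (95% Wilson interval 23.0 to 25.8) of the 3577 autosomal promoter peaks, out of 6171 autosomal peaks and 7847 peaks in the whole list. The other autosomal promoter peaks were 2640 in windows of 1 gene and 64 in windows of 2 or more genes of the same strand, and 2594 autosomal peaks lay outside promoter windows.

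The series consists of a single group, in 2 biological replicates, with nothing to compare it with. Each replicate was made from whole L3 larvae of Caenorhabditis elegans, males and females pooled, of strain OP37 with the genotype unc-119(ed3) III; wgIs37, where wgIs37 is an insertion that carries pha-4 tagged with eGFP. Both replicates carry the same unc-119 allele and the same insertion, the age in hours is listed as unknown, and the tagged protein comes from an inserted copy in a single strain. The antibody entry names pha-4 while the experiment's description names eGFP-pha-4, and nothing in the labels separates the tissues of the larva, so a peak may come from any cell that holds the protein.

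PHA-4 is the worm's FoxA protein, a forkhead transcription factor that specifies cells of the pharynx and has further roles in the gut. Divergent genes share the DNA between their 5' ends, and such intervals are short in this compact genome, so 1 bound site can lie close to both genes. Many worm messages are trans-spliced, so an annotated 5' end can lie downstream of the true start of transcription, and closely spaced genes on 1 strand can belong to an operon that has a single promoter. A peak in a shared window shows where the protein lay and does not show which gene, if either, it acts on.

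Sequences at a few summits are shown as examples of words that a part of these peaks carry. At least 1 of the words described further below was at 210 of the 873 shared summits (24.1%). The following 6 lines give 101 bases centred on the summit, on the plus strand of build ce11 (WBcel235, sequence from RefSeq), with the minus-strand gene named first. Capitals mark matches, on either strand, to GCGAGACC, CGTAAATC, ACACTCCG or TACCGTA, which are words found at shared peaks and described further below, and to the repeat GAGAGA. They are shown because they include some of the highest shared peaks and carry these words.
rpl-20 / Y17G9B.5, chrIV:4750015-4750115: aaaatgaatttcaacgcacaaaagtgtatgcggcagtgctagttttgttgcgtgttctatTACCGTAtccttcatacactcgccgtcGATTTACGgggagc
ska-3 / rps-12, chrIII:5679084-5679184: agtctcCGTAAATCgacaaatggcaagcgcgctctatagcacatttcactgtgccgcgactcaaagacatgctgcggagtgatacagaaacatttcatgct
K01G5.10 / tasp-1, chrIII:10759202-10759302: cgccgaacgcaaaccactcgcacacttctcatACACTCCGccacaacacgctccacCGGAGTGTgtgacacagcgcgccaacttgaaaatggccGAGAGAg
hsp-110 / rpn-3, chrIII:8447114-8447214: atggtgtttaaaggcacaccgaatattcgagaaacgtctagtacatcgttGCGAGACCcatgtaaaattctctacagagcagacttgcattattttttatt
rbc-2; Y54F10AM.15 / ndua-8, chrIII:2528764-2528864: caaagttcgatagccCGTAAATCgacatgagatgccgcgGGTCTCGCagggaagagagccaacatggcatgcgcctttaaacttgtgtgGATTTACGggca
wapl-1 / htz-1, chrIV:4445852-4445952: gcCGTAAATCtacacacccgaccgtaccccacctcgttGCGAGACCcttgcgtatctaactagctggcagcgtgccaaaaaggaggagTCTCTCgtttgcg
Read on the plus strand, a capital run can be the reverse complement of a word, as GATTTACG is of CGTAAATC and TCTCTC is of GAGAGA. The peaks of rpl-20, rps-12 and tasp-1 ranked 1, 2 and 5 among the 873.

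A second set of 3 sequences in the same format shows the forkhead heptamer, the motif class that FoxA proteins are known to bind, and a peak of high signal without any motif searched. Capitals mark a match, on either strand, to the heptamer TGTTTAC, which may have A as the second letter, G as the sixth letter or both.
rpl-15 / K11H12.8, chrIV:654877-654977: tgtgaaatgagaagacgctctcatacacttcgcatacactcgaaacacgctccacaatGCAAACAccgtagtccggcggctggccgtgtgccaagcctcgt
mig-5 / cct-1, chrII:8185162-8185262: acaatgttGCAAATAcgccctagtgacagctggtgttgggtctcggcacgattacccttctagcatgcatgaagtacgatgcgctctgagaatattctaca
iff-2 / F54C9.14, chrII:8561400-8561500: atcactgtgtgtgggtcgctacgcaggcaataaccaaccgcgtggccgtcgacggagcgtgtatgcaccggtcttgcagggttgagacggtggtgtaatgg
The summits of rpl-15 and cct-1 each have 1 forkhead heptamer, while the summit of iff-2, ranked 4 of 873, has neither a forkhead heptamer nor any of the other words searched.

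Most of the 873 peaks sat between 1 gene on each side. The windows of 2 genes held 817 of them, 55 lay in the windows of 3 genes and 1 in those of 4. That one stood between Y62E10A.20 on the minus strand and Y62E10A.23, mdt-9 (a Mediator subunit) and lsm-3 (an RNA-binding Sm-like protein) on the plus strand, with a relative signal of 1.94 in replicate 1 and 2.08 in replicate 2. Relative signal is the authors' signal value of a peak in a replicate divided by that replicate's median over the optimal peaks. In 811 cases the genes were neighbours that faced away from each other without overlap, here called head-to-head. The other 62 peaks held no such pair. At 7 of the 873 peaks the nearest 5' ends of the 2 strands lay at the same base or had crossed. The summit was upstream of both 5' ends in 806 cases, at or downstream of 1 of them in 65 and downstream of both in 2. By annotation 691 summits were intergenic (79.2%), 126 lay in an exon (14.4%) and 56 in an intron (6.41%).

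In all, 1737 genes had such a shared peak, which is 10.1% of the 17242 autosomal protein-coding genes. A gene with any optimal summit in its window is called bound, and 4113 genes, 23.9% of those autosomal genes, were bound. Of the bound genes 42.2% (95% Wilson interval 40.7 to 43.7) were bound through a shared peak. A shared peak counts for 2 or more genes and a 1-gene peak for 1. This share of genes is therefore not comparable with the 24.4% of promoter peaks. The interval takes the genes of 1 peak as independent, which they are not. Only 5507 genes had a window that met a window of the other strand and so could share a peak, and 31.5% of these did. The windows of both strands overlapped along 2.23 Mb of the autosomes and held 392 summits per Mb. Windows of 1 strand covered 20.2 Mb with 133.7 summits per Mb, and the remaining 60.1 Mb held 43.2 per Mb. The density in the shared windows was therefore 2.93 times that in 1-strand windows. Each base of a shared window lies near gene starts on both strands, so this ratio is not counted per gene start. Gaps between genes are counted per gene start below.

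PHA-4 summits were more frequent in the gaps between head-to-head genes than in gaps of the same length between genes of other orientation. Among gaps of up to 2000 bp, 844 of 2319 head-to-head gaps held a summit (36.4%, 95% Wilson interval 34.5 to 38.4). Of tandem gaps, between genes read in the same direction, 906 of 6486 did (13.97%), and of tail-to-tail gaps, which touch no 5' end, 43 of 1895 (2.27%). The head-to-head share was highest in gaps of 300 to 500 bp, at 53.0% (48.0 to 57.9), where tandem gaps had 17.2% (14.9 to 19.6) and tail-to-tail gaps 2.38%. In gaps of 1000 to 2000 bp it was 29.2%, against 19.5% for tandem gaps. A head-to-head gap touches 2 gene starts and a tandem gap 1. Counted per 100 gene starts, gaps with a summit numbered 26.5 for head-to-head and 17.2 for tandem genes at 300 to 500 bp. At 1000 to 2000 bp they numbered 14.6 and 19.5, so the order of this measure turned with length. A gap with several summits counts once, which can lower the head-to-head value because it is divided by 2 gene starts. At 1000 to 2000 bp, 52 of 679 head-to-head and 52 of 1444 tandem gaps held 2 or more summits. The part of this in the turn was not tested. Tandem gaps include genes inside operons, which were not separated here. The intervals cover the counting of gaps and take neighbouring gaps as independent, which they are not.

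**Figure D1:**
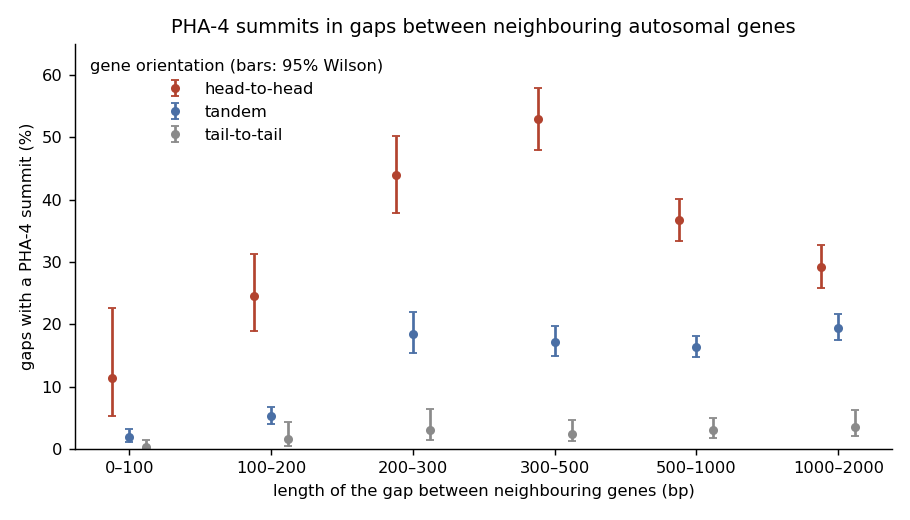
Share of gaps between neighbouring autosomal protein-coding genes that hold at least 1 PHA-4 summit (vertical axis, %), by gap length in bp (horizontal axis) and gene orientation; points are shares and bars are 95% Wilson intervals. Head-to-head gaps peak at 53.0% between 300 and 500 bp, while tail-to-tail gaps stay under 4% in each bin.

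A shared peak was found for 783 of the 2319 head-to-head pairs whose 5' ends lay within 2000 bp, or 33.8% (95% Wilson interval 31.9 to 35.7). The share was 56.4% (51.4 to 61.3) for the 383 pairs spaced by 300 to 500 bp. It was 28.3% at up to 100 bp, 33.7% at 100 to 200 bp, 48.8% at 200 to 300 bp, 38.7% at 500 to 1000 bp and 10.5% at 1000 to 2000 bp, where the windows overlap less. In closer pairs nearly any summit of the gap lies in both windows, so separate peaks can occur mainly above 1000 bp. There 37 pairs had each gene bound without a shared peak, beside 71 pairs with one. Over all spacings, in 140 pairs 1 gene was bound and in 1358 neither was. Of the pairs with a shared peak, 28 had a second one.
The highest of the pairs with 2 shared peaks was T26A8.4 and pdtf-1, with signals of 370.0 and 152 on the authors' scale. The others with the highest signals were maa-1 and C18D11.3 (312 and 113.8), F01G4.6 and pfd-1, a prefoldin subunit (290.2 and 48.2), and ecps-1 and atx-2, the worm ataxin-2 (275.7 and 100.5).

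The summits lay a short way upstream of the nearer gene. The spacing between the nearest 5' ends on the 2 strands had a median of 508 bp (quartiles 305 and 787). The median distance was 139 bp to the nearer 5' end (65 and 219) and 341 bp to the farther one (218 and 598). On a scale with 0 at the nearer 5' end and 0.5 midway, the 806 summits upstream of both 5' ends had a median position of 0.308 (0.184 to 0.414). By spacing the median position was 0.343 at 200 to 400 bp, 0.360 at 400 to 600 bp and 0.246 at 600 to 1000 bp. In the closest pairs, up to 200 bp, it was 0.273, and at 1000 to 2000 bp it was 0.293. At a spacing of 200 to 400 bp the medians were 96 bp and 197.5 bp, at 400 to 600 bp they were 170 and 327 bp, and at 600 to 1000 bp they were 174.5 and 581.5 bp. The nearer distance is the smaller of each pair by definition, and the windows limit both, so these are descriptions.

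**Figure D2:**
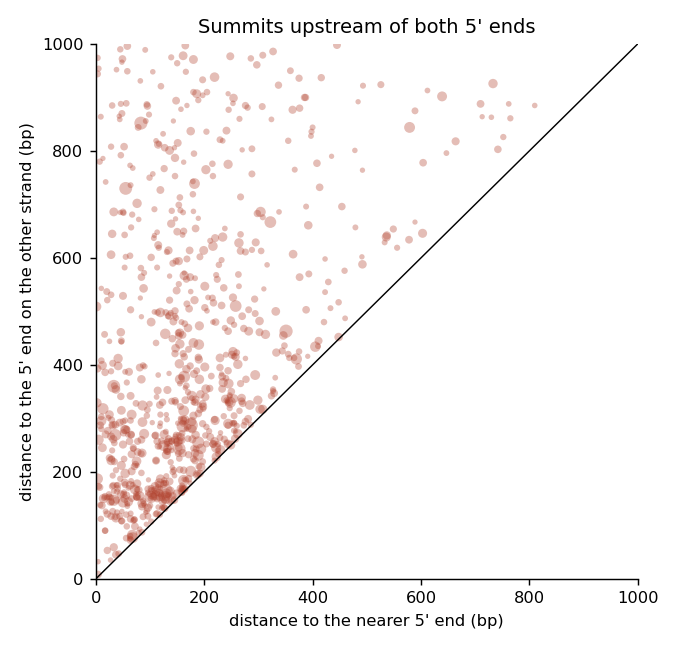
Distance of each summit to the nearer annotated 5' end (horizontal axis, bp) against its distance to the 5' end on the other strand (vertical axis, bp) for the 806 summits upstream of both; point area grows with signal and the line marks equal distance. No point can lie below the line; the medians over all 873 peaks are 139 and 341 bp.

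The closest and the widest pairs show the range. Among head-to-head pairs, F32D8.14 and F32D8.5 were 12 bp apart with a summit 8 and 4 bp upstream of their 5' ends and relative signals of 1.85 and 1.71 in replicates 1 and 2. Y59E9AL.36 and nbet-1 were 20 bp apart, trmt-10A and F25H8.2 22 bp and mbtr-1 and Y48G1A.1 36 bp, the last with relative signals of 0.498 and 0.659. At the other end mif-4 and ipla-6 were 1659 bp apart and had the highest peak of the 4 widest pairs, with relative signals of 3.19 and 3.05. The others were F59B1.6 and F59B1.2 (1650 bp), F48G7.10 and pals-31 (1626 bp) and nmat-2 and rab-5, a small GTPase of early endosomes (1598 bp). High and low peaks thus occurred at both ends of the spacing range.

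Signal was higher at shared peaks than at promoter peaks of 1 gene. The median on the authors' scale was 120.3 (quartiles 80.8 and 175.5, range 41.7 to 680.4) at the 873 shared peaks and 87.2 (60.5 and 134.6) at the 2640 1-gene peaks, a ratio of 1.38. In replicate 1 the median relative signal was 1.33 at shared and 1.02 at 1-gene peaks, and in replicate 2 it was 1.46 and 1.04. The ratio was 1.31 in replicate 1 and 1.40 in replicate 2, a mean of 1.35 ± 0.066 (SD, n = 2), so both replicates gave the same direction. The quartile ranges of the classes overlapped. The 64 promoter peaks in windows of 2 or more genes of 1 strand were as high as the shared peaks, with a median of 125.4 (quartiles 62.2 and 184.0) and median relative signals of 1.33 and 1.44 in replicates 1 and 2. The ratio in the optimal list was 1.41 for summits up to 50 bp from a 5' end, 1.29 at 50 to 100 bp, 1.35 at 100 to 200 bp, 1.38 at 200 to 400 bp and 1.18 at 400 to 1000 bp. No test was run on 2 replicates, and the ratios are given as measured.

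**Figure D3:**
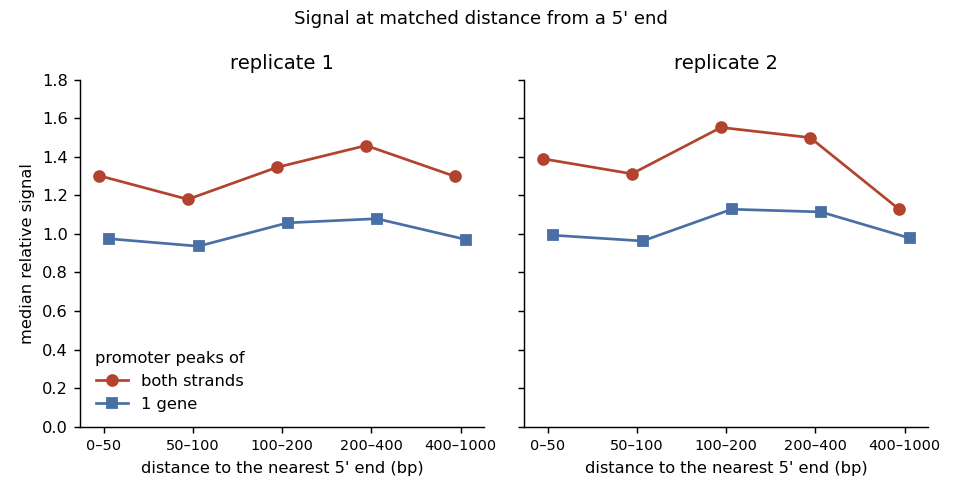
Median relative signal (vertical axis, where 1 is the replicate's median over optimal peaks) of shared peaks in windows of both strands and of 1-gene promoter peaks, by distance from the summit to the nearest 5' end (horizontal axis, bp), in each replicate. Shared peaks lie above 1-gene peaks in all 5 bins of both replicates, with 50 shared peaks in the last bin.

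Shared peaks made up a larger part of the top of the promoter list than of its bottom. They were 10 of the 20 promoter peaks of highest signal, 44 of the 100 highest and 182 of the 500 highest (36.4%, 95% Wilson interval 32.3 to 40.7), against 59 of the 500 lowest (11.8%, 9.26 to 14.9) and 24.4% of all. They were also narrower, with a median width of 259 bp against 340 bp at 1-gene peaks. A width of 340 bp was the upper quartile of both classes and also the median of the 1-gene class. The source of this recurring width was not tested.

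The 15 shared peaks of highest signal were led by genes of protein synthesis. Cytosolic ribosomal protein genes were at 8 of the 15, while they were 47 of the 1737 genes with a shared peak. Of 79 such genes 72 were bound by a peak of any class. How many of the highest 1-gene peaks were at such genes was not counted. The highest peak (chrIV:4749903-4750236, intergenic) lay between rpl-20 and Y17G9B.5, with relative signals of 8.10 in replicate 1 and 7.83 in replicate 2. Its summit was 287 bp from the 5' end of rpl-20, a large-subunit protein gene, and 175 bp from that of Y17G9B.5. The second (chrIII:5679003-5679283) lay between ska-3, named for the SKA complex of the kinetochore, and rps-12, a small-subunit protein gene, at 8.72 and 6.97. The third (chrIV:654758-655056) lay between rpl-15 and K11H12.8, at 7.57 and 6.41. All 3 summits lay far above the replicate medians and nearer to the middle of the interval than most.

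Other peaks of the 15 at ribosomal protein genes had partners with varied roles. The peak of rpl-12 and lin-54, the DNA-binding subunit of the DREAM repressor complex, had relative signals of 6.55 and 6.29 in replicates 1 and 2. That of rps-20 and ekl-4 had 6.05 and 5.91, and that of rps-19 and hsr-9 had 5.63 and 5.43. The peak of rpl-31 and sac-2 had 4.47 and 5.72. All 4 lay between 4.47 and 6.55 in both replicates. The summit of ifet-1, the worm 4E-T protein that represses translation, and rps-1 lay in an annotated exon and had 6.19 and 4.71.

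Translation factors took 3 further places of the 15. The peak of iff-2, translation factor eIF5A, and F54C9.14 had 9.10 in replicate 1 and 5.50 in replicate 2, the widest gap between replicates among the 15. Its summit lay 83 bp from iff-2 and 852 bp from F54C9.14. The peak of eef-1A.1, the elongation factor that brings aminoacyl-tRNA to the ribosome, and rfc-4, a subunit of the clamp loader of DNA replication, had 4.73 and 5.48, and a miRNA gene lay within 200 bp of its summit. The peak of ctf-4, a replisome protein, and eef-1G, elongation factor 1 gamma, had 4.11 and 5.39.

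The remaining 4 had genes of other kinds, and at 2 of them no gene was in any of the lists used below. K01G5.10 and tasp-1, a threonine aspartase, shared a peak at 7.76 and 5.64 in replicates 1 and 2, with the summit 55 bp from tasp-1 and 730 bp from K01G5.10. Y71H2AM.20 faced cox-6B, a cytochrome c oxidase subunit, and nduc-2, a complex I subunit, at 5.25 and 6.41, and this summit lay in an intron. The chaperone gene hsp-110 and the proteasome lid gene rpn-3 shared a peak at 5.78 and 5.51, with 255 and 189 bp to their 5' ends. The RNA-binding protein gene larp-1 and wip-1 shared one at 5.85 and 4.88. The pairs of tasp-1 and larp-1 are those outside the lists. Every one of the 15 was above 4 times the median in both replicates.

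**Figure D4:**
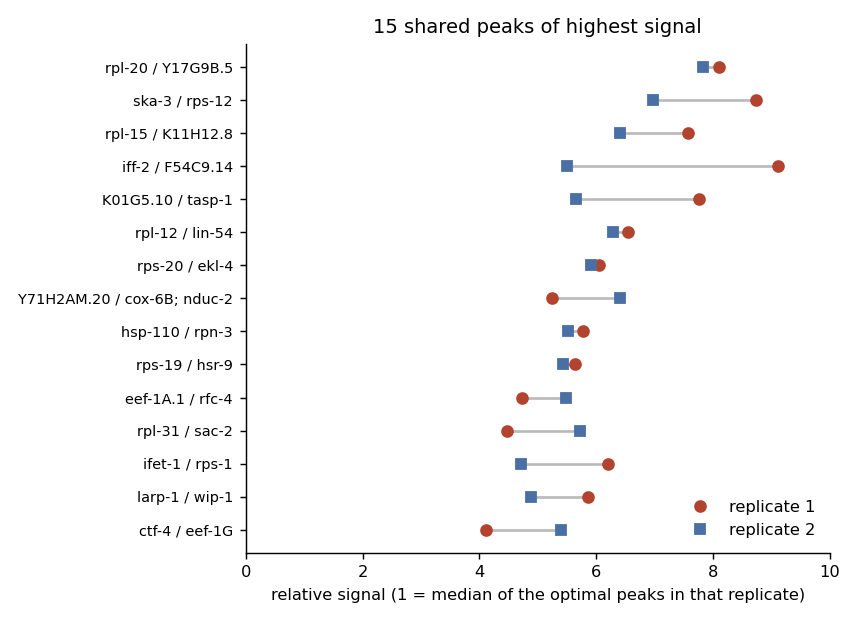
Relative signal (horizontal axis, 1 = the replicate's median over optimal peaks) in replicate 1 and replicate 2 for the 15 shared peaks of highest signal, named minus-strand gene first. All values lie between 4.11 and 9.10, and the pair of iff-2 and F54C9.14 has the largest gap between replicates.

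The 5 shared peaks of lowest signal were at other kinds of gene. Relative signals in replicates 1 and 2 were 0.578 and 0.482 at F45F2.11 and otpl-7, 0.502 and 0.514 at cyp-13A6 and cyp-13A7, a pair of cytochrome P450 genes, and 0.360 and 0.664 at W01A8.2 and plin-1, the worm perilipin of lipid droplets. The lowest peak of all, at gcsh-2 and kbrl-1, had 0.744 and 0.376, and its summit lay downstream of both 5' ends. A second peak between gcy-33, a guanylate cyclase gene, and cpr-9, a cysteine protease gene, had 1.89 and 0.144, with a tRNA gene within 200 bp. In replicate 1 that peak and its higher neighbour were matched to the same region, so its value there belongs to both.

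Genes of several lists, among them the cytosolic ribosome, the spliceosome and the proteasome, were bound through shared peaks in larger part than autosomal genes at large. Counts below are set beside the 42.2% of all bound genes and the 31.5% of genes able to share a peak. The members of the lists were chosen by gene symbol with earlier results of these data known. Of 79 cytosolic ribosomal protein genes 72 were bound, 47 of them through a shared peak (65.3% of bound, 95% Wilson interval 53.8 to 75.2). Of the 53 that could share a peak, 47 did (88.7%, 77.4 to 94.7). The median signal of their shared peaks was 249.7, against 121.5 over all genes with a shared peak. Splicing genes had 37 of 49 bound and 30 through a shared peak (81.1% of bound, 65.8 to 90.5), 30 of the 33 that could (90.9%, 76.4 to 96.9). Their highest were prp-8, the core spliceosome protein, with relative signals of 4.32 and 3.61 in replicates 1 and 2, and the divergent pair rsp-2 and rsp-1, both SR splicing factors, with 4.36 and 2.23.

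Proteasome, mitochondrial and chaperone lists followed. Of 33 proteasome genes 29 were bound and 20 shared a peak (69.0% of bound, 50.8 to 82.7), 20 of the 24 that could (83.3%). After rpn-3 the highest were rpt-2, a base ATPase, with relative signals of 2.83 and 2.86, and rpn-9, a lid subunit, with 3.39 and 2.67. Mitochondrial ribosomal proteins had 25 of 30, translation factors 18 of 22 and aminoacyl-tRNA synthetases 12 of 15 of the genes that could. Chaperones had 25 of 34 (73.5%), among them cct-6 (4.06 and 5.03) and cct-1 (4.03 and 4.32), both subunits of the cytosolic chaperonin. Genes of RNA polymerase and general transcription had 15 of 22, and oxidative phosphorylation genes 26 of 41, with cox-6B, nduc-2 and ndua-8 highest. The list of DNA replication and cyclin genes also took in cdk kinase genes by symbol. It had 19 of 29, with rfc-4, cdk-5 and pri-2 highest. The intervals of all these lists lay above the 31.5% of genes able to share a peak. Their genes were also bound more often by any peak. The bound part ran from 47.3% (RNA polymerase and general transcription) to 87.9% (proteasome), against 23.9% of autosomal genes. Whether the shares among genes able to share a peak go beyond this was not tested. Of their bound genes, however, the share bound through a shared peak was 63.2% (41.0 to 80.9) for aminoacyl-tRNA synthetases and 57.7% (38.9 to 74.5) for RNA polymerase and general transcription, and these intervals include the 42.2% of all bound genes.

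Vesicle trafficking genes had 22 of 47 (46.8%, 33.3 to 60.8) and ubiquitin conjugation genes 14 of 29 (48.3%, 31.4 to 65.6), and the ubiquitin interval reaches the 31.5% of all genes. Of the bound genes, 53.7% (38.7 to 67.9) of vesicle trafficking and 48.3% (31.4 to 65.6) of ubiquitin conjugation genes were bound through a shared peak. Both of these intervals include the 42.2% of all bound genes. The vacuolar ATPase had 3 of 8, vha-8, vha-1 and vha-17. Autophagy genes differed from the proteasome in layout: 17 of 21 were bound, but only 4 had a window that met one of the other strand. The 2 bound through a shared peak (11.8% of bound, 3.29 to 34.3, below the 42.2% of all bound genes) were lgg-3, the worm ATG12 protein, with relative signals of 1.13 and 1.23, and atg-3, an enzyme that acts on ATG8 proteins, with 1.03 and 0.880. Both values lie near the replicate medians.

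Several large gene families had few members with a shared peak, in most cases beside few bound members of any kind. Nuclear hormone receptors had 75 of 246 bound but 9 through a shared peak, 12% of the bound, and 9 of the 45 that could share one (20%, 10.9 to 33.8, an interval that includes 31.5%). The highest was nhr-68, a receptor known from propionate metabolism, whose peak with H12C20.7 had 2.51 and 3.10 in replicates 1 and 2. It was followed by nhr-47, which faces the co-chaperone gene dnj-19, and nhr-142. Chemoreceptors had 7 of 297 (2.36%), srh-16, sri-5 and srh-282 highest, but only 12 of 1276 were bound at all, so the 7 are 58.3% of the bound. The peak of sri-5 was shared with rsr-1 and that of srh-282 with sma-10, both outside the family. Collagens had 3 of 43, col-38 (opposite rpl-5), col-8 (opposite rfl-1) and col-71, out of 4 bound. C-type lectins had 6 of 83, clec-87 highest, out of 15 bound. Cytochrome P450 genes had 5 of 15 (33.3%, 15.2 to 58.3), near the share of all genes, and the major sperm proteins 0 of 15, which allows a share of up to 20.4% (Wilson).

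Histone genes are often arranged as divergent pairs, and 64 of 68 could share a peak, but 12 did (18.8%, 11.1 to 30.0). These 12 were 80% of the 15 bound histone genes. The highest were his-67 and his-68, with relative signals of 1.49 and 1.38 in replicates 1 and 2, and his-61 and his-62 with 1.44 and 1.44. Histone genes are near-identical copies and the handling of reads that match several places is not stated, so these counts are uncertain.

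**Figure D5:**
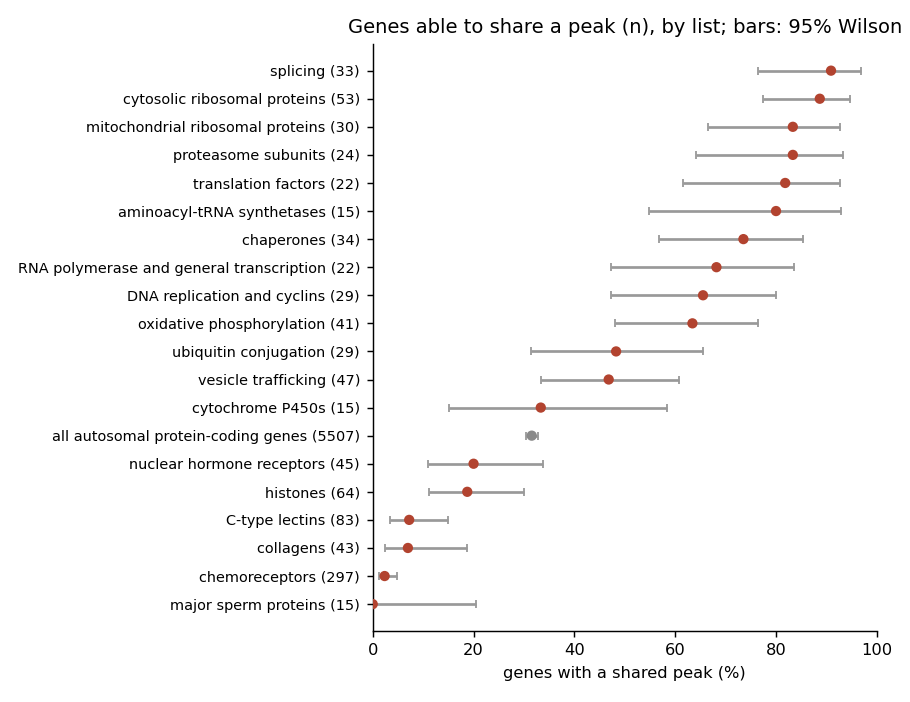
Share of genes with a shared PHA-4 peak (horizontal axis, %) among the genes of each list whose promoter window meets one of the other strand (number in brackets); points are shares, bars 95% Wilson intervals and the grey point is all such autosomal genes, 31.5%. Lists with under 10 such genes, autophagy and the vacuolar ATPase, are not drawn, and splicing and ribosomal protein genes stand highest at 90.9% and 88.7%.

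A gene of some list lay on both strands at 44 of the 873 peaks (5.04%), on 1 strand at 243 and on neither at 586. The highest of the 44 were hsp-110 with rpn-3 and eef-1A.1 with rfc-4, described above. Next came col-38 with rpl-5, at relative signals of 3.88 and 4.07 in replicates 1 and 2, and rpl-28 with mrpl-49, a cytosolic and a mitochondrial ribosomal protein gene, at 3.19 and 3.97. Pairs from within the cytosolic ribosome were rps-10 with rpl-24.1 (3.13 and 3.72), rps-14 with rpl-36 (3.35 and 2.90) and rpl-39 with rps-30 (3.05 and 2.57). In the first 2 of these a small-subunit gene was on the minus strand and a large-subunit gene on the plus strand.
Others joined different machines: rpl-36.A with nuo-1 of complex I, pas-4 of the proteasome core with rpb-3 of RNA polymerase II (2.79 and 2.70), and orc-5 of the origin recognition complex with cyb-1, a B-type cyclin (1.89 and 2.53). The heat-inducible pair hsp-16.2 and hsp-16.41, named here after its values were seen, had 1.04 and 1.34, near the replicate medians.

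A list gene was not regularly the nearer of the 2. At peaks of 2 genes with a list gene on 1 strand, that gene was nearer at 97 of 224 peaks (43.3%, 95% Wilson interval 37.0 to 49.9). Cytosolic ribosomal protein genes were the nearer gene at 11 of 33 peaks (33.3%, 19.8 to 50.4). Proteasome genes were nearer at 11 of 17 (64.7%, 41.3 to 82.7), and the 2 intervals overlap.

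Forkhead heptamers, searched within 50 bp of the summit on both strands, were present at 191 of 873 shared summits (21.9%, 95% Wilson interval 19.3 to 24.7). They were present at 26.1% (24.5 to 27.8) of 1-gene promoter summits and 25.1% of summits outside promoters, while 9.71% of windows of the same length centred 100 bp upstream of all autosomal genes held one. A broader FoxA consensus was TGTTTAC with A also allowed as the second letter, G as the fifth, G as the sixth and T as the last, so it includes the 4 heptamers. It was at 43.3% (40.05 to 46.6) of shared, 50.6% (48.7 to 52.5) of 1-gene and 54.5% of non-promoter summits, against 32.7% of all gene windows. The repeat GAGAGA was at 16.2% (13.9 to 18.7) of shared and 24.1% (22.5 to 25.7) of 1-gene summits, against 9.08% of gene windows. Shared summits thus had each of these less often than 1-gene summits, by a small margin for the heptamers, whose intervals touch.

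Among shared peaks a forkhead heptamer did not go with higher signal. The median signal was 109.7 with a heptamer and 121.1 without at shared peaks, and 92.6 with and 85.3 without at 1-gene peaks. The same order held in each replicate, at 1.20 with and 1.38 without in replicate 1 and 1.32 and 1.49 in replicate 2 for shared peaks. Within the 50 bp searched, the median distance of a heptamer from the summit was 19 bp in shared and 21 bp in 1-gene peaks, a distance that the search window itself keeps short.

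Several other words, counted at the summits in the same way, were more frequent at shared peaks. These 5 are GCGAGACC, CGTAAATC, GTACGCAA, ACACTCCG and TACCGTA, and they were picked after comparing all words of 6 to 8 letters between shared and 1-gene summits, so their excess there is a description. CGTAAATC and TACCGTA can overlap by the letters CGTA, and TACCGTA can overlap the end of a forkhead heptamer by TAC. At least 1 of the words was at 210 shared summits (24.1%, 95% Wilson interval 21.3 to 27.0), 6.48% (5.60 to 7.48) of 1-gene summits, 1.70% of summits outside promoters and 3.21% of all gene windows. GCGAGACC was at 6.64% of shared and 1.48% of 1-gene summits, CGTAAATC at 6.07% and 1.40%, and GTACGCAA at 5.96% and 1.74%. ACACTCCG was at 5.27% of shared and 1.17% of 1-gene summits, and TACCGTA at 6.64% and 1.52%. No factor is assigned to these words here.

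The words were also counted at the middle of head-to-head intervals of 200 to 1000 bp, whether or not a peak was there. At least 1 was in the central 101 bp of 14.4% (11.8 to 17.3) of 634 intervals with a shared peak and 4.57% (3.30 to 6.29) of 766 without one. A forkhead heptamer was in 13.2% (10.8 to 16.1) of the intervals with a shared peak and 9.40% (7.53 to 11.7) of those without. The words came from many of the same pairs, so this is a second reading and not an independent one. Median signal was 144.9 at shared peaks with a word and 113.9 at those without, and in 1-gene peaks 114.6 and 85.6. For GCGAGACC alone it was 177.7 with and 117.7 without at shared peaks, and 47 of the 58 matches were in the higher 437 of the shared peaks. GTACGCAA went the other way in shared peaks, at 103.2 with and 120.7 without.

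The intestinal GATA-type word TGATAA was picked in the same comparison. It was at 9.62% (7.84 to 11.8) of shared and 19.7% (18.2 to 21.3) of 1-gene summits. It was also at 19.97% of summits outside promoters and 12.6% (12.1 to 13.1) of all gene windows. At the interval centres above it was at 9.15% (7.14 to 11.6) with a shared peak and 8.49% (6.71 to 10.7) without. Against gene windows it was thus more frequent at 1-gene and non-promoter summits and less frequent at shared summits. The shared value was near that of interval centres without a shared peak. Shared peaks with TGATAA had a median signal of 81.2, against 124.6 without. In each replicate the order was the same. Medians were 0.927 with and 1.39 without in replicate 1, and 0.965 and 1.52 in replicate 2. At 1-gene peaks the medians were 68.4 with and 92.5 without. Base composition also differed between the classes, with a median G and C content of 43.6% in the 101 bp at shared summits and 40.6% at 1-gene summits, and repeat-masked bases made up a median of 25.7% and 19.8%. Their part in the word shares was not tested.

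Replicates agreed more closely at shared peaks than at 1-gene peaks. Of the shared peaks 867 were matched in replicate 1 and 858 in replicate 2 by a summit within 200 bp. Among as many of the highest regions of each replicate as the optimal list holds, 91.6% of the shared peaks were found in replicate 1 and 95.4% in replicate 2, against 83.3% and 92.3% of the 1-gene peaks. Over the 852 shared peaks with a value in both, the median coefficient of variation was 15.1%, against 19.1% over 2580 1-gene peaks, and 58 (6.81%) differed by more than 2-fold, against 347 (13.4%). Spearman's rho across peaks was 0.841 for shared and 0.736 for 1-gene peaks, as a description across peaks of 2 libraries that share a control file. Signal was also higher at shared peaks, and its part in this closer agreement was not tested.
The largest difference was at the lower of 2 peaks between slc-25A42 and cfim-1, with 0.148 in replicate 1 and 2.35 in replicate 2. Replicate 2 had 1 region there, matched to both peaks, so that value belongs to the higher peak as well. Without such a double match, the largest were ZK112.4 and ncl-1 (0.123 and 0.594), F44D12.2 and ent-7 (0.194 and 0.827) and madf-8 and gsr-1, the glutathione reductase gene (0.236 and 0.957), all higher in replicate 2.

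Shared peaks were spread over all 5 autosomes, with 202 on I, 150 on II, 216 on III, 141 on IV and 164 on V. The share of head-to-head pairs with a shared peak was 51.5% (95% Wilson interval 46.4 to 56.5) on III and 43.3% (38.7 to 48.1) on I, against 29.2% on II, 29.6% on IV and 23.4% (20.3 to 26.8) on V. Median signal of the shared peaks was 112.5 to 128.8 by chromosome and that of 1-gene peaks 83.7 to 89.7, so shared peaks were the higher class on each. Genes of tRNA, snoRNA, snRNA or miRNA lay within 200 bp of 9 shared summits (1.03%, 0.543 to 1.95) and 72 1-gene summits (2.73%, 2.17 to 3.42).

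The members depend on the window: 582 peaks were shared with 500 bp upstream and 100 bp downstream, and 1325 with 2000 bp upstream. Just inside its upstream end were dlc-1 and nduf-2.2, wht-3 and har-1, and T10E9.8 and T10E9.2, whose deciding 5' ends were 998, 997 and 996 bp away, with signals of 169.7, 161.7 and 156.1. Just outside were peaks at hrg-9, F46E10.3 and nhr-182, each 1002 bp from the gene that would have made them shared (srd-35, mdh-1 and F41B5.12), with signals of 90.1, 121.5 and 161.0. Just inside the downstream end were Y32H12A.8 and W03A5.2, unc-43 and Y43C5B.3, and lem-4 and Y55F3BR.11, with 193, 177 and 174 bp to the deciding 5' end and signals of 101.5, 108.9 and 98.0. Just outside were fip-4, hmgr-1 and pus-1, which missed the windows of smk-1, eco-1 and ctps-1 at 217, 241 and 271 bp, with signals of 380.3, 153.7 and 145.5.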

How the data were processed

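ChIP-seq peak lists of 2 biological replicates of 1 group were used on build ce11. Per the labels' manifests, each replicate's list was made from its own alignment and a control file shared by both, and the authors' optimal list from a pooled list and both replicate lists by an irreproducible discovery rate step. Not given in the sources used here: aligner, peak caller, threshold, extraction protocol and read depth. Values therefore carry no counting error on reads. The deposited signal is the authors' signal value of a peak, and neither its scale nor the quantity it measures is stated. The deposited −log10 q-value was used only to count peaks at its ceiling, which 7031 optimal peaks and 832 shared peaks reach. The deposited offset of the summit from the region's start is another value used. Lists on ce10 and the pooled list were not used here.

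Genes came from Ensembl release 115 on WBcel235, the same assembly. A replicate's region was matched to an optimal peak by the nearest summit within 200 bp, and 5 shared peaks in replicate 1 and 2 in replicate 2 were matched to a region that another peak also matched. Shares carry 95% Wilson intervals, which cover the counting of peaks or genes only. The replicates are labelled as biological replicates, and with 1 group there is no contrast, so no p-value is given. Placement of summits, window lengths and gaps were tested on simulated data. The members and lists were chosen with earlier results of these data known. The comparison by gene orientation, the distance bins, the counts of genes able to share a peak or nearer to it, TGATAA and the other words were added after values were seen. Named genes are those of the 15 highest and 5 lowest shared peaks, up to 12 peaks with list genes on both strands, up to 3 genes per list, the 5 peaks that differ most between replicates, 4 pairs with the most shared peaks, the peaks at the window's limits and the 4 closest and 4 widest pairs, with their partners. Sequence tables for promoters or proteins were not used here, and sequence came from the RefSeq genome. Analyses used Python 3.11.15, NumPy 2.4.6, pandas 2.3.3, SciPy 1.17.1 and Matplotlib 3.10.9.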

Additional observations from a re-analysis of the deposited data

How the results depend on the processing

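Of 78 values under other settings, 49 kept within the range set for them (1.5 times for a count, the Wilson interval for a share, the SD over the single-replicate lists for other values) and 29 moved. None of the ratios crossed 1. With a window of 500 bp upstream and 100 bp downstream, shared peaks were 20.3% of promoter peaks, the density ratio was 4.16, the median distance to the nearer 5' end 123 bp and the share of bound genes 35.1%. With 2000 bp upstream there were 1325 shared peaks, 30.0% of promoter peaks, with a density ratio of 2.38, a distance of 158 bp and 51.7% of bound genes. With 1 5' end per gene the share of promoter peaks was 26.2% and the distance 138 bp. Among the 3924 peaks of higher signal the share was 30.9%, the density ratio 4.07, the share of head-to-head pairs 25.4%, the median signal ratio 1.15, the distance 144 bp and the share of bound genes 49.0%. With whole regions in place of summits, 36.05% of pairs had a shared peak, the distance was 143 bp and 43.9% of bound genes were reached. With RefSeq genes the distance was 148 bp. With motifs within 100 bp, forkhead heptamers were at 30.9% and GAGAGA at 23.1% of shared summits. On the highest regions of replicate 1 or 2 alone, the density ratio ran from 2.97 to 3.16, the share of pairs from 34.2% to 36.2%, the signal ratio from 1.24 to 1.39, the distance from 137 to 138 bp and the share of bound genes from 42.7% to 43.8%. The causes were not tested.

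No paired analysis was possible because there is 1 group. Read depth is unknown, so a pair without a peak is not shown to be unbound. Distances use annotated 5' ends, with trans-splice sites not told apart from starts, and tandem genes of an operon were not separated. No expression was measured, so binding and use of a promoter cannot be told apart.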
